A study of Rattus norvegicus with 43 samples.

Results

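Mammary glands of rats treated with Targretin were compared with mammary glands of rats treated with 4HPR. The arrays were those the labels give as Targretin mammary gland 1 to 3 and 4HPR mammary gland 2 to 4, which are 6 of the 43 arrays in the series, and all 8740 probe sets other than controls were read. Targretin (bexarotene) was dosed at 60 mg per kg body weight through a gavage tube. 4HPR (4-hydroxyphenylretinamide, or fenretinide) was mixed into the diet at 782 mg per kg, so dose and route differed along with the agent and cannot be told apart from it. All animals were female Sprague-Dawley rats, an outbred strain, treated for 7 days from 100 days of age. The diet group, 4 mammary gland arrays of rats that received diet only, gives the background level, and the labels name no gavage control. A group of 4 arrays from rats given 9-cis retinoic acid (9cRA) at 100 mg per kg diet entered the fit for its spread. The labels do not say whether the replicates were different animals, so the p-values measure the spread between these arrays, which may be technical, and their number limits the precision.

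Targretin binds the retinoid X receptors (RXR), nuclear receptors that sit on DNA together with a partner such as a peroxisome proliferator-activated receptor (PPAR), a liver X receptor or a thyroid hormone receptor. Some of these partnerships, those with PPARs among them, answer to a ligand of RXR alone. 4HPR is a synthetic amide of retinoic acid that has been studied for the prevention of breast cancer, and much of its action is described as independent of the retinoid receptors. The rat mammary gland is a tree of epithelial ducts and alveoli in a fat pad, with vessels, nerves and immune cells between them.

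All signals are the authors' MAS5 values, a linear intensity per probe set after each array was scaled to a common mean. The median signal was 438, 433 and 414.0 on the Targretin arrays and 401.9, 348 and 350 on the 4HPR arrays. Liver-restricted probe sets, 190 in number, are those that averaged 8000 or more over the liver arrays, 20 or more times their median over the lung arrays. Their median signal, in percent of the mean signal in diet liver, was 0.836%, 0.788% and 0.701% on the Targretin mammary gland arrays, against 8.22%, 3.5% and 6.2% on the 4HPR arrays. It was between 2.78% and 7.24% on the 9cRA arrays and between 4.11% and 6.51% on the diet arrays, so the Targretin arrays alone lay under 1%. The summed signal of 25 skeletal muscle markers was 120342 on Targretin array 3, against 15701 and 17692 on Targretin arrays 1 and 2 and 16617 to 21410 on the 4HPR arrays. Targretin array 3 thus held about the same low liver signal as the other Targretin arrays and far more muscle signal than any other mammary gland array. Ratios of 3′ to 5′ control probe sets, a measure of RNA integrity, overlapped between the groups: for Gapdh they were 2.82 to 4.12 on Targretin arrays and 2.69 to 3.1 on 4HPR arrays, and for Actb 2.86 to 3.69 and 3.23 to 5.7. They were higher than in liver. The Gapdh medians for Targretin and 4HPR were 3.13 and 2.86 in mammary gland, against 1.13 and 1.21 in liver. Those of Actb were 3.45 and 3.45, against 1.41 and 1.4.

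**Figure D1:**
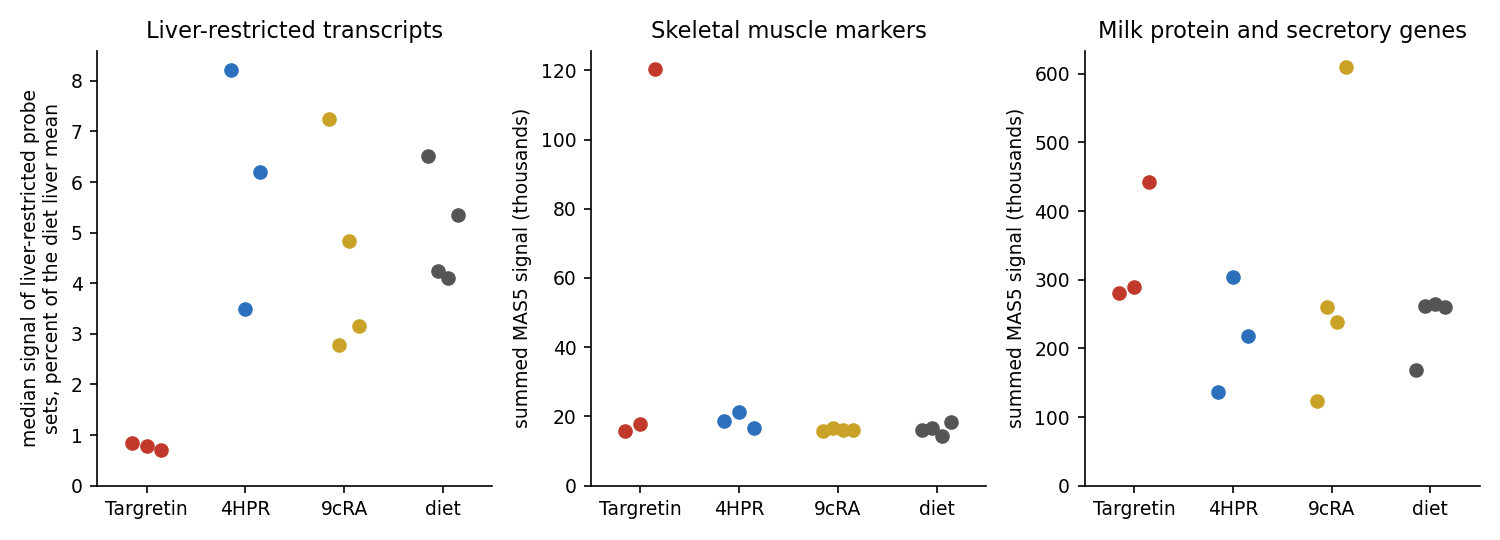
Signal by array in mammary gland, 1 point per array, with 3 Targretin, 3 4HPR, 4 9cRA and 4 diet arrays from left to right. Left, median signal of liver-restricted probe sets in percent of diet liver, where the Targretin arrays lie between 0.701% and 0.836% and the 4HPR arrays between 3.5% and 8.22%; middle, summed signal of 25 skeletal muscle markers, with Targretin array 3 at 120342; right, summed signal of 12 milk protein and secretory genes, where the groups overlap.

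Transcripts of liver genes were lower with Targretin than with 4HPR by large factors, and a smaller number of transcripts were higher. Among the higher, those of Pacsin2, Mrgprf, Ggt5, Ace, Sec61a1 and Dio3 passed whichever of the 6 arrays was left out. Those of Calr, P4hb, Scarb1 and Erbb3 did not pass in at least 1 such fit. Of 6059 probe sets tested, 256 (4.23%) passed at an adjusted p under 0.05 (limma with Benjamini-Hochberg adjustment). Of these, 93 (1.53%) were higher and 163 (2.69%) lower, and they named 73 genes higher and 104 genes lower. None of the 256 had overlapping groups, while 34.9% of all tested probe sets had none either. The call depends on the liver transcripts: 144 of the 256 were liver-dominant, meaning that their mean signal in diet liver was at least 4 times that in diet mammary gland, and when the 499 liver-dominant probe sets were left out before the adjustment, 0 of 5560 passed (0%; smallest adjusted p = 0.0523). In that set 1114 probe sets (20%) had an unadjusted p under 0.05, 811 of them higher and 303 lower.

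When each of the 6 arrays was left out in turn, 102 of the 256 probe sets kept their call throughout, 96 lower and 6 higher. Dropping 4HPR array 4 left 117 passing, 4HPR array 2 left 140, 4HPR array 3 left 157, Targretin array 2 left 147 and Targretin array 3 left 159. The median difference over all tested probe sets was 0.14 on the log2 scale, and quantile normalization lowered it to 0.03. The shift depended on the signal level. When the probe sets that were not liver-dominant were split into 5 equal groups by mean signal, the median difference was 0.30 in both dimmer groups, 0.20 in the third, 0.07 in the fourth and −0.12 in the brightest. After quantile normalization these medians lay between −0.06 and 0.11.

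**Figure D2:**
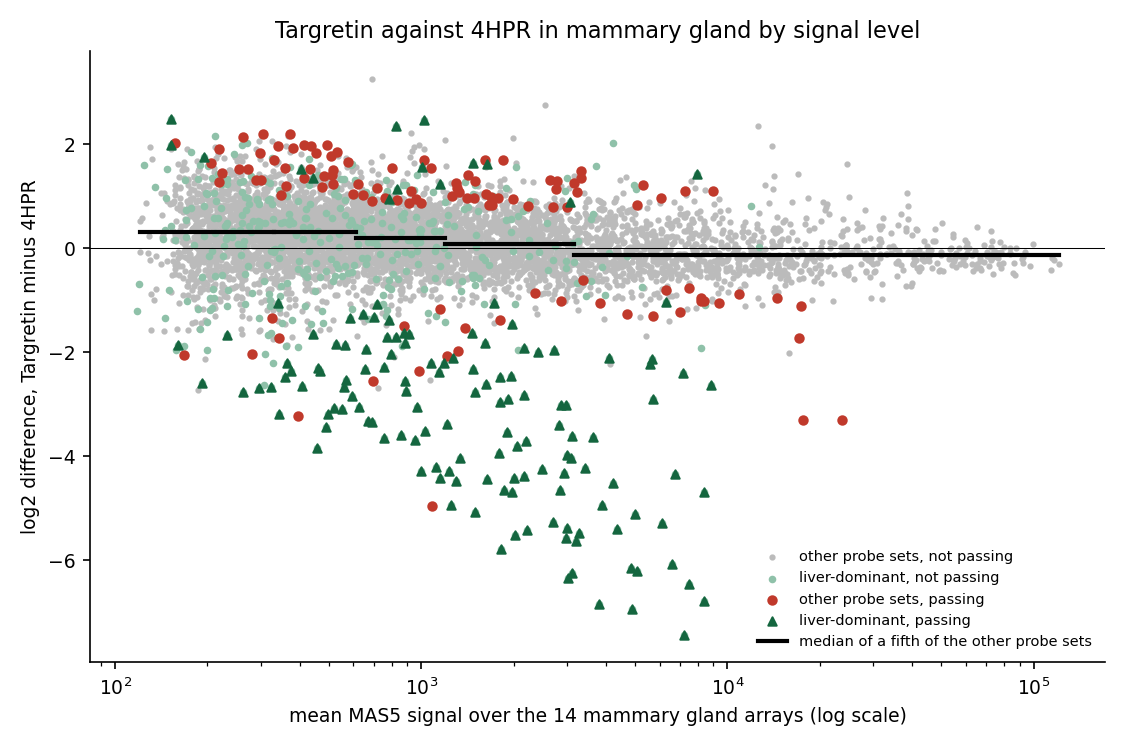
Log2 difference, Targretin minus 4HPR, against the mean signal over the 14 mammary gland arrays (log scale) for 6059 probe sets. Dark green triangles are the 144 liver-dominant probe sets that passed and red points the other 112; black lines are the medians of 5 equal groups of the probe sets that were not liver-dominant, falling from 0.30 at the dim end to −0.12 at the bright end.

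Calr, P4hb, Canx and Hsp90b1, which fold proteins in the endoplasmic reticulum, each passed higher with Targretin on at least 1 probe set, and of the 4 only Calr passed on all. Chaperone genes of this compartment are known for an endoplasmic reticulum stress element in their promoters, to which factors of the unfolded protein response bind. The element, CCAAT and CCACG with 9 bases of any kind between them, searched on both strands, occurred in 22 of 33469 rat promoters of 300 bases (0.0657%), those of calreticulin (Calr), calnexin (Canx), Grp94 (Hsp90b1) and BiP (Hspa5) among them. The 250 bases before the start of each gene are shown because they place this element beside transcripts that moved and one that did not pass, with capitals marking the fixed letters of the element. The sequences are from RefSeq, build GRCr8, each 5′ to 3′ on the gene's strand, at chr19:40213117-40213366 (+) for Calr, chr10:35157858-35158107 (−) for Canx, chr7:23012294-23012543 (−) for Hsp90b1 and chr3:38452766-38453015 (+) for Hspa5.
Calr: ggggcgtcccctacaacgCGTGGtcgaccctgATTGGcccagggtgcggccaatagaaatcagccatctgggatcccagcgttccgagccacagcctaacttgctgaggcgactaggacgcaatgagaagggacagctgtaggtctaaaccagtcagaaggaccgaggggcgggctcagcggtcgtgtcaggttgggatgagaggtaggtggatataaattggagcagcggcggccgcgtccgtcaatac
Canx: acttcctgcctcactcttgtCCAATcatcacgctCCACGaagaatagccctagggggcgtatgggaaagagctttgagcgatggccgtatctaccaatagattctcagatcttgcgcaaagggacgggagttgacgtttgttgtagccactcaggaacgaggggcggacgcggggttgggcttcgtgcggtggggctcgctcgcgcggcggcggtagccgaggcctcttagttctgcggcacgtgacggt
Hsp90b1: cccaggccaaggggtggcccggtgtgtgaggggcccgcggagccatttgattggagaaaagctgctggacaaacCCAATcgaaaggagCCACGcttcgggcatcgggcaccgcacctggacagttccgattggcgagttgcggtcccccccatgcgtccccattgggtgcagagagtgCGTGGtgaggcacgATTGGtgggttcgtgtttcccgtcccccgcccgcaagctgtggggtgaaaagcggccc
Hspa5: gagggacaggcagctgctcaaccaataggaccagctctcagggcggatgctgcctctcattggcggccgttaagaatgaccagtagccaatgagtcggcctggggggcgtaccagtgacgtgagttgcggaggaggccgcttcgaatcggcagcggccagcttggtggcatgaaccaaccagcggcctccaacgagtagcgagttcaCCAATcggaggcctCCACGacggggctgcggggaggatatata
In Calr the element runs on the opposite strand and begins 232 bases before the start of the gene; Hsp90b1 carries it on each strand, 176 and 72 bases before its start, and Hspa5 43 bases before its start. Of the 21 genes whose promoters hold it, 6 were tested, on 17 probe sets with a median difference of 0.29. Of these, 5 probe sets of 3 genes passed, all higher, where 1.53% of all tested probe sets did, and 3 of the 5 read Calr. The element was searched beside genes whose calls were known, so this count does not test it. On the brightest probe set 1 gene passed, Calr. Ero1b, an oxidase of the same compartment, stood at −0.55 ± 0.29 without overlap and without passing (adjusted p = 0.286).

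Calr, a lectin chaperone that also binds calcium, had signals of 17165, 10981 and 12825 on its brightest probe set in Targretin glands, against 6968, 5664 and 6101 in 4HPR glands and 6528 ± 649.1 in diet glands (SD, n = 4). On the others it had 4520, 2319 and 1813 in Targretin glands, against 866.8, 840.4 and 781.2 in 4HPR glands, and 2560, 2160 and 1665 in Targretin glands, against 646.7, 217.6 and 377.4 in 4HPR glands. All 3 probe sets passed, with every Targretin array above every 4HPR array and differences of 1.10 ± 0.29, 1.64 ± 0.33 and 2.35 ± 0.58 (log2 ± SE, adjusted p = 0.0474, 0.00971 and 0.0311). Only the second kept its call in most fits that left out 1 array, 5 of 6, the exception being the fit without 4HPR array 4 (adjusted p = 0.0505). The brightest lost its call in every one of them (adjusted p up to 0.147) and the dimmest in 5 (up to 0.125).

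P4hb encodes protein disulphide isomerase, which forms disulphide bonds in new proteins and serves as a subunit of collagen prolyl hydroxylase. Its brightest probe set had 14634, 12053 and 15448 in Targretin glands, against 5067, 5039 and 5528 in 4HPR glands and 4333 ± 1392 in diet glands. The groups lay far apart (1.42 ± 0.33, adjusted p = 0.025), but without any 1 of the 6 arrays the adjusted p was between 0.0527 and 0.0842. The other probe sets of P4hb did not pass, at differences of 0.15 and 1.61. Canx, the membrane-bound partner of Calr, passed on 1 of 5 probe sets, with 4905, 3561 and 5046 in Targretin glands, against 2202, 1445 and 1762 in 4HPR glands (1.31 ± 0.31, adjusted p = 0.0263; up to 0.108 with 1 array left out). Its brightest probe set had 9925, 10755 and 16647 in Targretin glands, against 12897, 14857 and 11361 in 4HPR glands, a difference of −0.10 ± 0.32 (adjusted p = 0.889). The probe sets of Canx therefore disagree.

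Hsp90b1 passed on 1 of 3 probe sets, with 3865, 4531 and 4864 in Targretin glands, against 2722, 2025 and 2370 in 4HPR glands (0.89 ± 0.20, adjusted p = 0.0188; up to 0.0849 with 1 array left out). Its brightest probe set stood at −0.04 ± 0.26 (adjusted p = 0.943). Hspa5, the main chaperone of the compartment, did not pass, with 11018, 8418 and 8982 in Targretin glands, against 8523, 7238 and 7385 in 4HPR glands on its brightest probe set (0.29 ± 0.36, adjusted p = 0.663). Of 26 tested genes of heat shock and the unfolded protein response, 2 passed higher and 0 lower on their brightest probe set, Calr and P4hb, and 4 passed higher when any probe set counted. The list's median difference was 0.13, near the 0.14 over all tested probe sets, of which 1.53% passed higher.

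Sec61a1, the channel through which new proteins enter the endoplasmic reticulum, had 680.4, 607.2 and 803.0 in Targretin glands, against 257.9, 270.6 and 221.7 in 4HPR glands. The difference of 1.35 ± 0.24 (adjusted p = 0.00359) held in every fit that left out 1 array. Slc35b1, a nucleotide transporter of the same membrane, passed on both of its probe sets, at 1.70 ± 0.44 and 1.08 ± 0.24 (adjusted p = 0.0391 and 0.0188), and lost the call on one of them in all 6 such fits (adjusted p up to 0.141). Sec61a1 and Slc35b1 were named after their values were seen. The passing probe sets of P4hb, Hsp90b1 and Sec61a1 and the dimmer 2 of Calr are liver-dominant themselves. They were higher on the Targretin arrays, whose liver-restricted signal was lower, and a link between these levels was not tested.

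Scarb1, the receptor that takes up cholesteryl ester from high-density lipoprotein, had the largest rise among probe sets that passed and have 1 gene symbol. It had 2268, 1941 and 2454 in Targretin glands, against 592.8, 268.4 and 310.3 in 4HPR glands and 392.6 ± 120.9 in diet glands. Every Targretin array exceeded every 4HPR and diet array, and the difference was 2.47 ± 0.50 (adjusted p = 0.0102). A further probe set passed at 1.55 ± 0.31 (adjusted p = 0.00943), with 1498, 2537 and 1651 in Targretin glands, against 646.6, 452.1 and 757.7 in 4HPR glands, and the third did not (1.28 ± 0.44, adjusted p = 0.113). Each passing probe set kept its call in 4 of 6 fits that left out 1 array; both lost it when 4HPR array 3 was dropped, the larger difference also on dropping 4HPR array 4 (adjusted p = 0.0565) and the other on dropping Targretin array 2 (adjusted p = 0.0607).

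Of the mammary epithelial list Erbb3 passed, and of the milk and secretory list Muc1. Muc1, a mucin of the apical membrane and of milk fat globules, had 1597, 2302 and 2458 in Targretin glands, against 902.5, 1146 and 891.3 in 4HPR glands and 1008 ± 161.0 in diet glands (1.07 ± 0.24, adjusted p = 0.0195). Erbb3, a receptor for neuregulins that signals with Erbb2, had 803.2, 822.1 and 780.9 in Targretin glands, against 342.9, 303.5 and 353.7 in 4HPR glands (1.18 ± 0.26, adjusted p = 0.0176). The spread of Erbb3 within each group was small beside the gap between them. Muc4, a membrane mucin that binds Erbb2, had 3851, 6226 and 10021 in Targretin glands, against 1982, 3069 and 2367 in 4HPR glands (1.34 ± 0.36, adjusted p = 0.0493), and Ddr1, a collagen receptor of epithelia, was higher by 1.25 ± 0.30 on 1 of 3 probe sets (adjusted p = 0.0299); both were named after their values were seen. Erbb3 lost its call in each fit that left out 1 array (adjusted p = 0.0513 to 0.0675) and after quantile normalization (0.0543), Muc1 in 4 of them (up to 0.0954), and Muc4 and Ddr1 in 5 (up to 0.171 and 0.119).

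In the broader lists of the gland 1 gene passed in each on its brightest probe set, where 1.53% of all tested probe sets passed higher and 2.69% lower. Of 17 tested mammary epithelial genes 1 passed higher and 0 lower, with a median difference of 0.11. Of 12 tested milk protein and secretory genes 1 passed higher and 0 lower, and 11 of 12 differences were positive, with a median of 0.80. Csn1s2a, a casein, had 4487, 803.5 and 12252 in Targretin glands, against 153.3, 1540 and 472.9 in 4HPR glands (2.75, adjusted p = 0.173), so arrays within each group differed widely. The brightest casein, Csn3, had 71941, 81589 and 88899 in Targretin glands, against 50360, 85066 and 61904 in 4HPR glands, with overlapping groups.

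**Figure D3:**
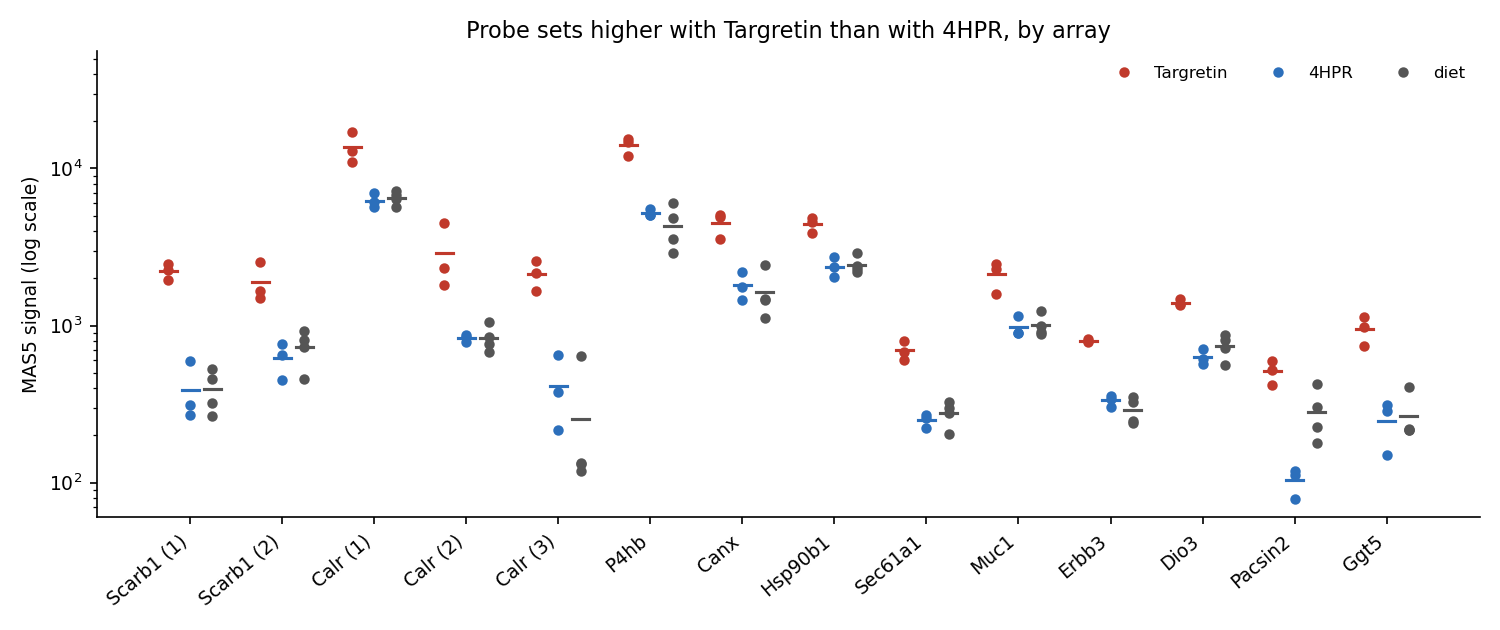
MAS5 signal (log scale) of 14 probe sets that were higher with Targretin, 1 point per array and a bar at each mean, with 3 Targretin, 3 4HPR and 4 diet arrays from left to right for each probe set. Numbers in brackets distinguish probe sets of 1 gene; in each, every Targretin array lies above every 4HPR array, by 0.89 for Hsp90b1 to 2.47 for Scarb1 on the log2 scale.

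Among signalling genes, Fos, an immediate early transcription factor, passed on 1 of 3 probe sets, with 319.5, 1068 and 921.3 in Targretin glands, against 81.0, 98.3 and 205.8 in 4HPR glands (2.19 ± 0.48, adjusted p = 0.0172); the others stood at 0.76 and 1.13 and did not pass. Dio3, the deiodinase that inactivates thyroid hormone, had 1466, 1350 and 1368 in Targretin glands, against 571.4, 711.2 and 611.0 in 4HPR glands (1.10 ± 0.22, adjusted p = 0.00918). Ggt5, which converts leukotriene C4 to D4, had 978.5, 1134 and 746.2 in Targretin glands, against 149.3, 286.0 and 309.8 in 4HPR glands (1.82 ± 0.35, adjusted p = 0.00657). Ace, the angiotensin-converting enzyme, had 2182, 2868 and 2868 in Targretin glands, against 1035, 1037 and 836.2 in 4HPR glands (1.41 ± 0.27, adjusted p = 0.00657), and was named after its values were seen. Dio3, Ggt5 and Ace kept their calls in every fit that left out 1 array, while Fos lost it in 4 of 6 (adjusted p up to 0.0969).

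Pacsin2, an adaptor of endocytosis, had 524.8, 596.0 and 421.1 in Targretin glands, against 79.0, 112.0 and 119.2 in 4HPR glands and 282.9 ± 107.3 in diet glands. Its difference of 1.96 ± 0.36 (adjusted p = 0.00454) held without any 1 of the 6 arrays, and so did that of Mrgprf, an orphan receptor (1.83 ± 0.36, adjusted p = 0.00714). For Pacsin2 the diet glands lay between the groups, and 4HPR minus diet was −1.14. The same order was seen for Grin2d, a glutamate receptor subunit (2.13 ± 0.54, adjusted p = 0.0378), Fgfr2, a receptor for fibroblast growth factors (1.99 ± 0.51, adjusted p = 0.0393), and the olfactory receptor Or1f19e (2.03 ± 0.46, adjusted p = 0.0203), with 4HPR minus diet at −1.64, −1.48 and −1.28. None of these 4HPR to diet differences passed. By contrast, Scarb1, Ggt5 and Stk39, a kinase of ion transport (1.85 ± 0.49, adjusted p = 0.0474), had 4HPR levels close to diet, with 4HPR minus diet between −0.09 and 0.00. Grin2d and Stk39 lost their calls in each fit that left out 1 array (adjusted p up to 0.137 and 0.195) and Fgfr2 and Or1f19e in 5 of 6 (up to 0.151 and 0.101). After quantile normalization Grin2d, Stk39 and Fgfr2 did not pass either (adjusted p = 0.0557, 0.0617 and 0.0573), and no other tested probe set of these 3 genes passed, at differences of −0.03 to 0.77.

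The rest of the 15 largest rises were Gnb5 (2.19), Kiaa0930 (1.93), Ptpro (1.90), Dgkz (1.76) and Car2 (1.76), all at signals under 1000. With 1 array left out, Gnb5 and Ptpro lost their calls in 4 of 6 fits and Kiaa0930, Dgkz and Car2 in 5 (adjusted p up to 0.141), and after quantile normalization Ptpro and Car2 did not pass (0.0573 and 0.0797). Where a gene had several probe sets the dimmer ones tended to carry the larger positive difference. Over 919 genes with several tested probe sets that were not liver-dominant, the median difference was 0.01 on the brightest and 0.32 on the dimmest probe set, and after quantile normalization −0.03 and 0.19. Smooth muscle actin, Acta2, showed it: its brightest probe set had 21583, 29378 and 26773 in Targretin glands, against 34467, 38946 and 32883 in 4HPR glands (−0.46 ± 0.21, adjusted p = 0.207), whereas a dimmer one passed at 1.13 ± 0.27 (adjusted p = 0.0259). The tropomyosin gene Tpm1 (1.69 ± 0.37, adjusted p = 0.0168), the uncoupling protein gene Ucp2 (1.26 ± 0.26, adjusted p = 0.0125) and Hadha of mitochondrial beta-oxidation (0.94 ± 0.21, adjusted p = 0.0209) likewise passed on 1 dimmer probe set and not on their brightest. With 1 array left out, Tpm1 lost its call in 3 of 6 fits and Acta2, Ucp2 and Hadha in 4 (adjusted p up to 0.109), and Hadha did not pass after quantile normalization (0.0584). Of 49 genes with several tested probe sets and at least 1 passing higher, 2 passed on all of them, Calr and Slc35b1, and 37 had the same sign on all; of 43 such genes passing lower, 18 passed on all and 30 had the same sign. Whether the level of the signal has a part in these calls was not tested.

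Of the 112 passing probe sets that were not liver-dominant, 34 were lower with Targretin, those of Acaa1b, Acot1, Ghr and S100b among them. Probe sets of albumin (Alb) at −3.303 and −3.301 were among them as well, so the 112 are not free of liver transcripts. Acaa1b, a peroxisomal thiolase of beta-oxidation, had 198.5, 152.4 and 152.4 in Targretin glands, against 1711, 803.6 and 1120 in 4HPR glands, and diet glands spanned both, at 703.2 ± 471.7 (−2.54 ± 0.58, adjusted p = 0.0219). Acot1, which hydrolyses acyl-CoA in the cytosol, had 137.3, 351.8 and 412.5 in Targretin glands, against 1655, 1642 and 1403 in 4HPR glands and 994.0 ± 777.0 in diet glands (−2.35 ± 0.57, adjusted p = 0.0292). Both genes are classical targets of PPARα in rat liver. Hsd17b4, the peroxisomal bifunctional enzyme, had 4105, 5664 and 5521 in Targretin glands, against 8378, 8721 and 8750 in 4HPR glands (−0.77 ± 0.18, adjusted p = 0.0277). It passed on 1 of 4 tested probe sets, all of them negative, from −0.95 to −0.51. Of 33 tested genes of PPAR targets and fatty acid oxidation, 4 passed lower and 0 higher on their brightest probe set. Over all tested probe sets 2.69% passed lower and 1.53% higher. The fourth gene was the liver-dominant Cyp4a1 (−3.06), which passed on 1 of 3 tested probe sets, with the others at −0.55 and 0.17. The list had a median of −0.01, with 16 differences positive and 17 negative. When any probe set counted, 2 genes passed higher, Hadha and Ucp2. With 1 array left out, Acaa1b lost its call in 4 of 6 fits, Acot1 in 5 and Hsd17b4 in 4 (adjusted p up to 0.093, 0.113 and 0.11).

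Ghr, the growth hormone receptor, had 8173, 4598 and 4841 in Targretin glands, against 23607, 13126 and 21330 in 4HPR glands and 23962 ± 4169 in diet glands. Its brightest probe set passed at −1.72 ± 0.30 (adjusted p = 0.00342) and kept the call without any 1 of the 6 arrays, and its other probe sets stood at −0.80 and −0.52 without passing. Slc1a3, a glutamate and aspartate transporter, had 2205, 2896 and 2257 in Targretin glands, against 7574, 4696 and 6397 in 4HPR glands (−1.31 ± 0.24, adjusted p = 0.00513), while its 3 dimmer probe sets stood at −0.67 to 0.20 and did not pass. Cyp2b2, a drug-metabolising cytochrome, had 254.3, 494.6 and 687.1 in Targretin glands, against 2039, 1700 and 1850 in 4HPR glands (−1.97 ± 0.37, adjusted p = 0.00579). Ccl11, the eosinophil chemoattractant eotaxin, had 658.8, 364.9 and 352.3 in Targretin glands, against 2132, 2080 and 1709 in 4HPR glands (−2.06 ± 0.38, adjusted p = 0.00445). Slc1a3, Cyp2b2 and Ccl11 also kept their calls whichever of the 6 arrays was left out. Slc1a3 and Ccl11 were named after their values were seen, as were the next 4 genes.

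Defb4, an antimicrobial defensin, had 57.2, 67.2 and 82.1 in Targretin glands, against 1204, 630.4 and 1162 in 4HPR glands (−3.23 ± 0.73, adjusted p = 0.0205), and diet glands varied widely at 455.0 ± 433.8. The chemokine Cxcl14 (−1.24 ± 0.28, adjusted p = 0.0203), the heparan sulphate proteoglycan Gpc3 (−2.04 ± 0.49, adjusted p = 0.0301) and the mitochondrial isocitrate dehydrogenase Idh2 (−1.02 ± 0.26, adjusted p = 0.0377) were each lower on 1 probe set. Another tested probe set of each did not pass, at −0.64 for Cxcl14, 0.02 for Gpc3 and 0.66 for Idh2. S100b, a calcium-binding protein of Schwann cells that fat cells also make, had 8771, 8404 and 7802 in Targretin glands, against 20827, 13162 and 21297 in 4HPR glands (−1.11 ± 0.28, adjusted p = 0.038). Ldhb, the heart-type lactate dehydrogenase subunit, had 11458, 6747 and 7421 in Targretin glands, against 15617, 14876 and 18454 in 4HPR glands (−0.96 ± 0.21, adjusted p = 0.0161). Klf9, a transcription factor induced by thyroid hormone and glucocorticoid, had 4512, 6502 and 4400 in Targretin glands, against 9660, 9759 and 9996 in 4HPR glands (−0.95 ± 0.25, adjusted p = 0.0476), but its dimmer probe set stood at 0.30 and did not pass. The glutathione transferase Gsta1 was lower on all 3 of its probe sets, by −1.03 ± 0.21, −1.01 ± 0.27 and −0.88 ± 0.19 (adjusted p = 0.00893, 0.0474 and 0.0176); these may also read close relatives of the gene. With 1 array left out, Defb4, Gpc3, Idh2, S100b and Klf9 each kept the call in only 1 of 6 fits, Cxcl14 in 2 and Ldhb in 3. The probe sets of Gsta1, in the order given, kept it in 4, 0 and 2. Over these 8 genes the adjusted p rose to as much as 0.156. After quantile normalization Idh2, Klf9 and 1 probe set of Gsta1 did not pass (adjusted p = 0.0585, 0.0677 and 0.0573).

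**Figure D4:**
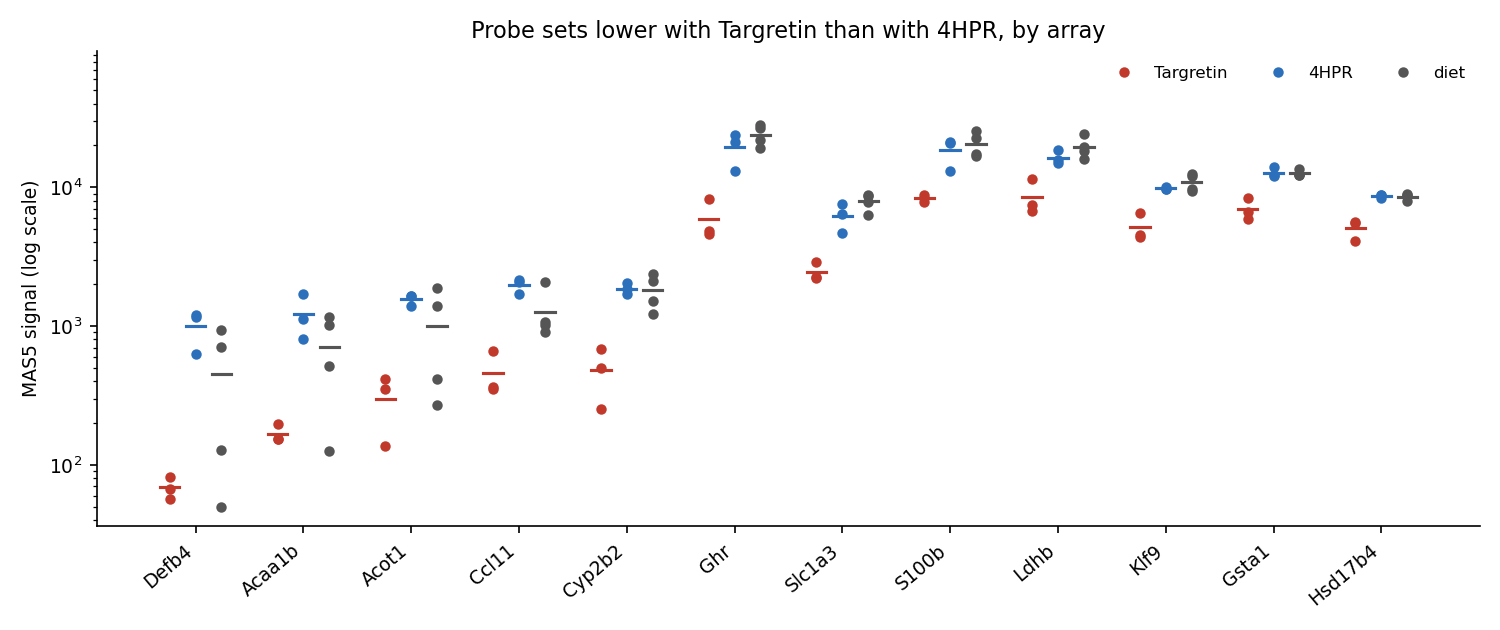
MAS5 signal (log scale) of 12 probe sets that were lower with Targretin and are not liver-dominant, 1 point per array and a bar at each mean, with 3 Targretin, 3 4HPR and 4 diet arrays from left to right for each. Every Targretin array lies below every 4HPR array; for Defb4, Acaa1b and Acot1 the diet arrays span both groups.

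The largest differences of the comparison were those of liver transcripts. Of 17 tested liver markers, 16 passed lower and 0 higher, with a median difference of −4.29, against 0.14 over all tested probe sets, of which 2.69% passed lower. Ttr, the plasma carrier of thyroxine and of retinol-binding protein, had 45.2, 182.8 and 23.7 in Targretin glands, against 17016, 6856 and 12704 in 4HPR glands and 13611 ± 1833 in diet glands, while diet liver stood at 62264 (−6.78 ± 0.49, adjusted p = 4.63e-07). Cyp2c12, a steroid hydroxylase of the female rat liver, had 26.0, 22.2 and 12.9 in Targretin glands, against 10203, 4245 and 6720 in 4HPR glands (−6.84 ± 0.42, adjusted p = 1.55e-07). Fabp1, the liver fatty acid-binding protein, had 11.3, 22.3 and 19.3 in Targretin glands, against 6768, 2661 and 4825 in 4HPR glands (−6.33 ± 0.47, adjusted p = 5.68e-07). In each the 4HPR and diet arrays lay together far above the Targretin arrays, which were near the floor of the scale. Whether these liver transcripts came from cells of the gland was not tested. Fewer cells of a type and less RNA per cell cannot be told apart in such samples either.

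Alb, which encodes serum albumin, had 4725, 4706 and 1497 in Targretin glands, against 36065, 21916 and 42008 in 4HPR glands (−3.30 ± 0.52, adjusted p = 0.0012). This probe set does not count as liver-dominant, since diet glands had a mean of 32984 and diet liver 86887. No liver marker was listed at 0 on a Targretin, 4HPR or diet array, and their summed signal over 18 genes was 8116 to 32806 on Targretin arrays, against 86961 to 168754 on 4HPR arrays and 106859 to 162170 on diet arrays. Cyp2e1, the 1 liver marker that did not pass, had 2429, 22239 and 1413 in Targretin glands, against 19239, 15147 and 17907 in 4HPR glands (−2.01 ± 0.70, adjusted p = 0.118), with Targretin array 2 level with the 4HPR arrays. Of the 180 liver-restricted probe sets tested, 115 passed lower and 0 higher. The other large falls were in Cyp2c7 (−6.94), Ahsg (−6.46), Sult2a1 (−6.21), Serpina3c (−5.48) and Ambp (−5.27), genes of steroid metabolism and of plasma proteins. Probe sets of the cytochrome and sulphotransferase families can read several members of a family.

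Most calls of the metabolic lists were of such liver transcripts. Over all tested probe sets 2.69% passed lower and 1.53% higher. Of 45 tested drug metabolism and antioxidant genes 7 passed lower and 0 higher: Cyp2c22 (−4.25), Cyp2c23 (−3.98), Cyp1a2 (−1.95) and Ugt2b1 (−1.87), with Cyp2b2, Gsta1 and Cyp3a9 (−1.83), the last named after its values were seen. The list's median was −0.33. Cyp2c23 passed on 2 of 3 tested probe sets, and the other, dim and not liver-dominant, stood at 1.14 without passing. Of 28 tested genes of glucose metabolism 3 passed lower, the gluconeogenic Fbp1 (−3.58 ± 0.47, adjusted p = 0.000188), the liver glucose transporter Slc2a2 (−2.60 ± 0.51, adjusted p = 0.00716) and Ldhb, with a median of 0.09. Of 27 tested chemokine, cytokine and acute phase genes 3 passed lower, Orm1 (−2.62 ± 0.47, adjusted p = 0.0038), Hp (−2.22 ± 0.44, adjusted p = 0.00799) and C3 (−1.99 ± 0.45, adjusted p = 0.0218). In the same list the inducible nitric oxide synthase Nos2 passed higher (1.20 ± 0.30, adjusted p = 0.0378), with 660.2, 522.5 and 415.1 in Targretin glands, against 141.2, 261.0 and 235.2 in 4HPR glands. Nos2 lost its call in each fit that left out 1 array (adjusted p = 0.0506 to 0.132) and after quantile normalization (0.0996), C3 in 4 of 6 (up to 0.0909) and Ugt2b1 in 3 of 6 (up to 0.0797). The median liver-restricted level beside these genes was 0.701% to 0.836% on Targretin arrays and 3.5% to 8.22% on 4HPR arrays. When each array's estimated liver signal was subtracted, an alternative chosen after the data were seen, the differences of C3 (2.115), Cyp1a2 (0.704) and Ugt2b1 (0.521) were positive without passing, and Fbp1 and Slc2a2 had no value. That subtraction used a single fraction per array for all probe sets and set results under 0 to 0. The amount exceeded the signal on every 4HPR array for Cyp1a2 and on some for C3, so these signs rest in part on the floor.

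Among genes of retinoid handling only liver-dominant members passed, beside 2.69% of all tested probe sets passing lower. Of 16 tested, 2 passed lower and 0 higher, with a median of 0.27: Ttr, and Adh1c, an alcohol dehydrogenase that also oxidises retinol (−1.63 ± 0.34, adjusted p = 0.0116), with 548.6, 618.4 and 524.4 in Targretin glands, against 2628, 1075 and 2124 in 4HPR glands and 43239 in diet liver. Adh1c lost its call when 4HPR array 2 or 4 was dropped (adjusted p up to 0.0712). Its difference was positive under the same subtraction (2.794, limma adjusted p = 3.26e-08). There the subtracted amount exceeded the Adh1c signal on every 4HPR array and those values were set to 0. The difference and its adjusted p therefore rest on the floor and do not give a direction for Adh1c. Crabp2, a cellular carrier of retinoic acid, had 1829, 2062 and 6287 in Targretin glands, against 618.1, 2055 and 1410 in 4HPR glands (1.21 ± 0.49, 95% interval 0.17 to 2.25, adjusted p = 0.165). Rara, a retinoic acid receptor, had 5942, 3894 and 4701 in Targretin glands, against 2977, 2487 and 2047 in 4HPR glands, without overlap and without passing (0.94 ± 0.31, interval 0.28 to 1.60, adjusted p = 0.103). The target receptors of Targretin did not pass either: Rxra stood at 0.86 ± 0.51 (interval −0.22 to 1.93), Rxrb at −0.34 ± 0.30 (−0.98 to 0.29) and Rxrg at 0.60 ± 0.30 (−0.03 to 1.24), with adjusted p = 0.329, 0.509 and 0.247. Among the others, Crabp1 (0.78), Aldh1a1 (−0.60) and Rbp4, the plasma carrier of retinol (−0.68 on its brightest probe set, adjusted p = 0.0915), did not pass. Of the 21 genes measured, 5 were too dim to test, Rarb and Rbp2 among them.

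In the fat pad, 0 of 17 tested adipocyte markers passed in either direction, with a median of 0.00, and their summed signal was 174949 to 270021 on Targretin arrays and 242716 to 272796 on 4HPR arrays. Lpl, the lipoprotein lipase, had 43799, 32972 and 33833 in Targretin glands, against 39617, 45300 and 46188 in 4HPR glands on its brightest probe set, with overlap. Leptin, Lep, had 6768, 6463 and 6272 in Targretin glands, against 4348, 4130 and 3898 in 4HPR glands, without overlap and without passing (0.65, adjusted p = 0.086). Of 20 tested genes of fatty acid and triglyceride synthesis 0 passed, with a median of 0.49 (0.37 after quantile normalization), and Srebf1, their main transcription factor, stood at 1.86 with an adjusted p of 0.107. Of 26 tested genes of oxidative phosphorylation 0 passed, with a median of −0.14.

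Of 18 tested skeletal muscle markers 0 passed on their brightest probe set, with a median of 0.70. The muscle creatine kinase gene Ckm had 530.0, 396.7 and 8237 in Targretin glands, against 390.8, 310.2 and 322.2 in 4HPR glands, so that Targretin array 3 alone was high. By brightest probe set, the marker lists of lymphocytes, macrophages, mast cells and granulocytes, blood cells, and vessels held 0 passing genes among 13, 16, 8, 5 and 14 tested, with medians of 0.21, 0.34, −0.03, 0.08 and 0.19. For nerve and Schwann cells S100b alone passed of 9 tested, and the list's median was −0.20, with 4 differences positive and 5 negative. Its summed signal, which includes the bright S100b, was 22280 to 29490 on Targretin arrays and 36491 to 41952 on 4HPR arrays, without overlap. Proliferation genes (0 of 17, median 0.34), extracellular matrix genes (0 of 29, median −0.14), cholesterol synthesis (0 of 13, median 0.23), cell cycle inhibitors and apoptosis (0 of 18, median 0.24), clock genes (0 of 9, median 0.10) and genes of brown fat (0 of 8, median 0.39) had no member passing on its brightest probe set either. Of the insulin-like growth factor axis Ghr passed lower among 17 tested (median 0.06), of the thyroid and steroid hormone response Dio3 passed higher and Klf9 lower among 18 (median −0.35), and of the immediate early genes Klf9 passed lower among 24 (median 0.17). Over all tested probe sets 1.53% passed higher and 2.69% lower. On a dimmer probe set, Tpm1 of the muscle list, Acta2 of vessels, Ucp2 of brown fat and Fos of the immediate early genes passed higher.

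Each agent was also set against diet, in tests that share the diet arrays with each other and 1 treated group with the main comparison. With Targretin, 796 of 6059 probe sets (13.1%) passed against diet, 482 higher (7.96%) and 314 lower (5.18%). With 4HPR 0 passed (0%; limma, smallest adjusted p = 0.999), while 180 (2.97%) had an unadjusted p under 0.05. Targretin minus diet and 4HPR minus diet were 1.65 and 0.01 for Calr on the probe set at 1.64 above, 1.74 and 0.32 for P4hb, 1.03 and −0.04 for Muc1, and 1.37 and 0.19 for Erbb3. They were −2.06 and −0.34 for Ghr and −7.02 and −0.24 for Ttr. For Acaa1b they were −1.51 and 1.04, for Acot1 −1.34 and 1.02, and for Defb4 −1.59 and 1.64, none of them passing. For these 3 genes the mean distance between the agents was larger than that of either from diet. In each, diet arrays 2 and 3 lay below diet arrays 1 and 4. On diet arrays 1 to 4 Acaa1b had 1154, 517.2, 126.5 and 1016. Acot1 had 1884, 418.4, 272.1 and 1401, and Defb4 931.5, 127.6, 49.4 and 711.4. The 4HPR minus diet values of these genes therefore rest in part on diet arrays 2 and 3. The number passing for Targretin against diet was 338 without Targretin array 2 and 368 to 375 without diet array 3 or 2.

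Whether the difference between the agents itself differed between organs was tested in a fit of all 43 arrays. Against liver, 295 of 5120 probe sets (5.76%) passed, 108 of them more positive in mammary gland (2.11%) and 187 more negative (3.65%). Acot1 was −2.35 ± 0.57 in mammary gland and 6.12 ± 0.66 in liver, where Targretin livers had 39556 ± 9476 (SD, n = 3) and 4HPR livers 781.6 ± 749.2 (n = 4); the mammary gland minus liver value was −8.47 ± 0.97 (adjusted p = 2.06e-07). Acaa1b was −2.54 in mammary gland and 3.85 in liver (−6.39 ± 0.68, adjusted p = 4.08e-08), and Cyp2b2 −1.97 and 3.88 (−5.85 ± 0.68, adjusted p = 2.43e-07). These 3 transcripts were lower with Targretin than with 4HPR in mammary gland and higher in liver. Scd2, a stearoyl-CoA desaturase, was 0.33 in mammary gland and 4.66 in liver (−4.34 ± 0.60, adjusted p = 6.18e-06), and Eci1, an enoyl-CoA isomerase, −0.48 and 2.09 (−2.56 ± 0.34, adjusted p = 2.56e-06). Pacsin2 went the other way, at 1.96 in mammary gland and −1.22 in liver (3.18 ± 0.40, adjusted p = 1.81e-06). Without liver-dominant probe sets 140 of 4669 passed.

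Against lung, 17 of 5120 probe sets (0.332%) passed, 9 more positive (0.176%) and 8 more negative (0.156%) in mammary gland, and 2 of 4669 without liver-dominant probe sets. P4hb was 1.42 ± 0.33 in mammary gland, −0.08 ± 0.23 in lung and −0.01 ± 0.23 in liver, and differed from both (adjusted p = 0.0326 and 0.0053). Car2, a carbonic anhydrase with a liver-dominant probe set, was 1.76 in mammary gland and −0.76 in lung (2.52 ± 0.48, adjusted p = 0.00703). Eno1, a glycolytic enolase, was 1.15 and −0.37 (1.52 ± 0.33, adjusted p = 0.0309), with 14565, 10182 and 14762 in Targretin glands, against 6663, 4291 and 6927 in 4HPR glands, while its brighter probe set stood at −0.08 in mammary gland. Prkce, a protein kinase C, was −0.43 in mammary gland and 1.35 in lung (−1.78 ± 0.35, adjusted p = 0.0112), and Sec11a, a subunit of signal peptidase, 0.80 and −0.75 (1.55 ± 0.31, adjusted p = 0.0115). The liver transcripts Serpina1 (−3.84 ± 0.62, adjusted p = 0.000728), Cyp2c23 and Pon1 were more negative in mammary gland than in lung. Other liver transcripts were also lower with Targretin in lung, among them Fabp1 (−4.69 ± 0.64), Cyp2c7 (−6.56 ± 0.90) and Cyp2c12 (−5.00 ± 0.75). Alb stood at −6.14 ± 0.81 in lung, and its difference between the organs did not pass (mammary gland minus lung 2.83 ± 1.19, adjusted p = 0.291). The 4HPR lung arrays varied widely, with Alb at 16071 and an SD of 13543. Acot1 also differed from lung, where it stood at 1.74 ± 0.66 (mammary gland minus lung −4.10 ± 0.97, adjusted p = 0.0471), and lost that call whichever of the 6 arrays was left out (adjusted p = 0.0609 to 0.106). Dropping 4HPR array 2 left 8 passing, and dropping 4HPR array 3 or Targretin array 3 left 10.

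**Figure D5:**
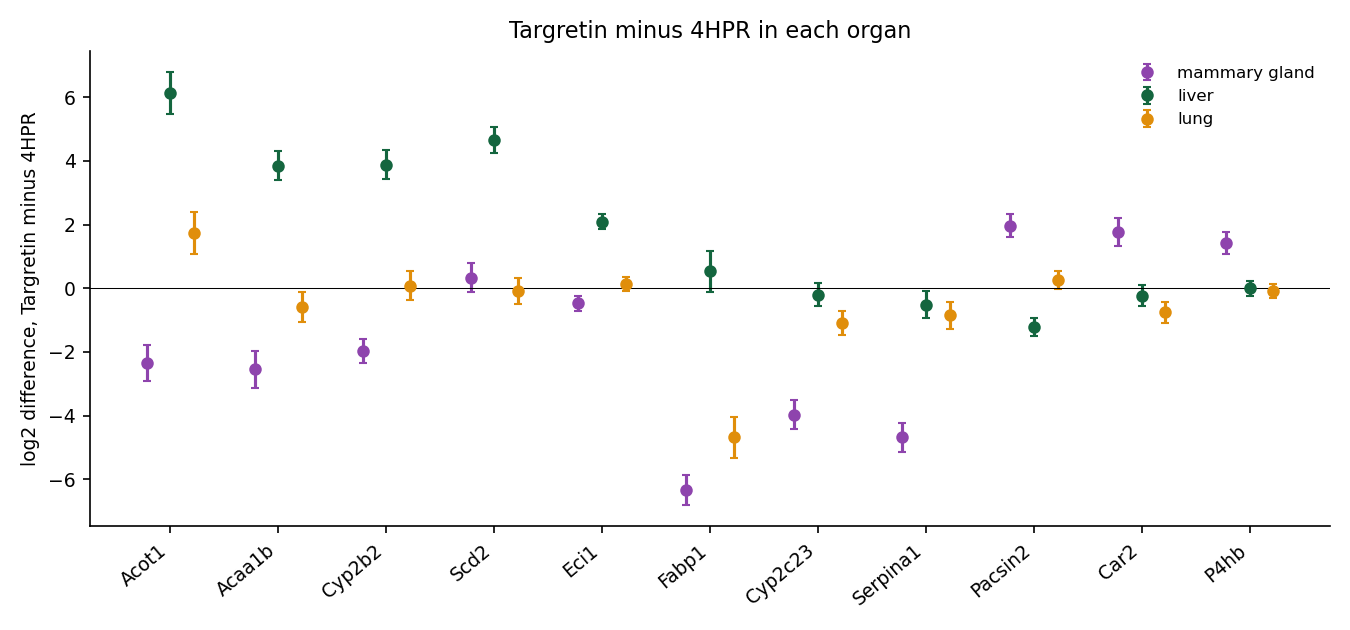
Log2 difference, Targretin minus 4HPR, with its standard error, for 11 probe sets in mammary gland, liver and lung, with mammary gland from the fit of its 14 arrays and liver and lung from the fit of all 43 (3 Targretin arrays in each organ, 3 4HPR arrays in mammary gland and 4 in liver and lung). Acot1, Acaa1b and Cyp2b2 lie below 0 in mammary gland and above 0 in liver, Pacsin2 the other way round, and Car2 and P4hb lie above 0 in mammary gland alone.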

How the data were processed

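RNA of 43 samples of rat liver, lung and mammary gland was measured on Affymetrix rat arrays. The intensity values are signals deposited by the authors, on a linear scale and globally scaled (trimmed mean 1501.78 to 1503.29 on every array). MAS5 is named in the submitters' processing notes, without a version, and no detection calls were used. The 59 control probe sets among 8799 were dropped. Names came from GEO's platform annotation, which gives 7018 probe sets 1 gene symbol, 308 several and 1473 none; 6994 matched RefSeq by Entrez ID.

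Signals were converted to log2 of signal plus 38.1, the 10th percentile of all values; fold changes on this scale understate changes of dim genes. A probe set was tested where at least 3 mammary gland arrays exceeded their 40th percentile. The 14 mammary gland arrays were fitted with limma 3.58.1 in R 4.3.3 (eBayes with trend), and organ differences over all 43 arrays on 5120 probe sets. The Benjamini-Hochberg adjustment ran across every probe set tested. The procedure was tested on simulated data. An exact permutation test of 3 against 3 arrays cannot go below 0.1 and was not used.

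The members, gene lists, thresholds and naming rule were chosen with earlier results of these data known. A gene stands in a list by its brightest probe set. Named were the 15 largest differences each way among passing probe sets without overlap, up to 6 passing members of each list (the 3 smallest p-values where fewer than 2 passed), retinoid handling genes, the 8 smallest p-values of each organ difference, the 3 brightest genes of each cell type list, and other probe sets of these genes. Alternatives were quantile normalization, no filter, other pseudocounts, a block for array numbers, array weights, fewer arrays in the fit and leaving out each array; leaving out liver-dominant probe sets and subtracting liver signal were added after the data were seen. Residuals of arrays sharing a number correlated at a median of 0.0124 (−0.179 to 0.183, 18 pairs). Arrays with different numbers were not compared, so this cannot settle whether the numbers pair the arrays. The main fit did not pair them.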

Additional observations from a re-analysis of the deposited data

Results flagged for a closer look

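The difference between Targretin and 4HPR itself differed between organs in a fit of all arrays for the following named probe sets. Mammary gland minus liver was −8.47 for Acot1, −6.86 for Fabp1, −6.39 for Acaa1b, −5.85 for Cyp2b2, −4.34 for Scd2, −3.78 for Cyp2c23, −2.56 for Eci1, 1.425 for P4hb and 3.18 for Pacsin2 on the log2 scale. Mammary gland minus lung was −4.10 for Acot1, −3.84 for Serpina1, −2.90 for Cyp2c23, −2.73 for Pon1, −1.78 for Prkce, 1.498 for P4hb, 1.52 for Eno1, 1.55 for Sec11a and 2.52 for Car2. Fabp1, Cyp2c23, Serpina1 and Pon1 are liver-dominant.

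Among 90 probe sets named in the text, 6 had 1 diet array far from the other 3. Its signal was 4979 for Gsta1, 636.6 for Calr on its dimmest probe set, 406.3 for Ggt5, 586.5 for Hadha, 2074 for Ccl11 and 11423 for Idh2. Chance gives such a distance in about 1 of 20 groups.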

How the results depend on the processing

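Against 256 probe sets passing for Targretin minus 4HPR, array quality weights gave 1108, a fit of the 6 arrays alone 458, and leaving out liver-dominant probe sets 0 by either definition. Leaving out each of the 14 arrays in turn gave 117 to 307. Quantile normalization gave 244, no filter 228, a pseudocount 4 times larger 265 and 4 times smaller 251, and subtracting the estimated liver signal 275. With the array number as a replicate block the count was 159, and 44 of 75 passing named probe sets kept their call, against 64 of 75 after quantile normalization and 33 of 75 without 4HPR array 4. For Targretin minus diet (796) array quality weights gave 1308, leaving out liver-dominant probe sets 508, and leaving out each of the 14 arrays 338 to 1057. For 4HPR minus diet every alternative run gave 0. For mammary gland minus liver (295) leaving out liver-dominant probe sets gave 140, and for mammary gland minus lung (17) it gave 2; there the Targretin and 4HPR arrays alone gave 35, and leaving out each of the 6 arrays 8 to 18. Subtracting liver signal turned C3 (2.115), Cyp1a2 (0.704), Ugt2b1 (0.521) and Adh1c (2.794) positive, and left Fbp1 and Slc2a2 without a value. Results under 0 were set to 0 in that fit, on every 4HPR array for Adh1c and Cyp1a2, which limits these signs and the count of 275. The brightest probe set of Hsp90b1, near 0 throughout, was 0.081 under that subtraction and 0.049 after quantile normalization, and −0.128 to 0.066 with 1 array left out; that of Canx was −0.326 to 0.046 with 1 array left out. The causes were not tested. Without detection calls, a dim signal cannot be told from background.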
